A study of Mus musculus with 6 samples.

Results

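Genes of the unfolded protein response and of protein folding in the endoplasmic reticulum (ER) were examined in alveolar type II cells, the lung epithelial cells that make and secrete surfactant. The set held 40 genes, chosen by name, and each was found among the 19938 genes measured. Of these, 38 carried their listed symbol, and Ero1l and Vimp were found under their current symbols Ero1a and Selenos. The labels give 2 groups of 3 arrays. Mice of both groups carried SP-C-rtTA, a doxycycline-dependent activator under the surfactant protein C promoter of type II cells, and the responder transgene (tetO)7CMV-Cre. The knockout arrays came from littermates that also had floxed Gpr116 alleles (Gpr116flx/flx), and the control arrays from littermates with the transgene pair alone. Each array held a pool of cells from 3 sex- and age-matched mice, 8 weeks old, lysed 2 hours after isolation by collagenase and plating. The labels do not state a doxycycline treatment for either group.

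The ER folds and modifies proteins that enter the secretory pathway. When unfolded protein accumulates there, 3 membrane sensors respond: IRE1, encoded by Ern1, splices Xbp1 mRNA, PERK, encoded by Eif2ak3, slows translation and raises Atf4 protein, and Atf6 is cut in the Golgi to release a transcription factor. The factors made in this way raise genes for chaperones, for disulfide formation and for ER-associated degradation, the route by which misfolded proteins are returned to the cytosol and destroyed. Type II cells carry a heavy secretory load of surfactant proteins, some of whose mutant forms are known to misfold in the ER.

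The sequence best known for joining these genes is the ER stress response element (ERSE), written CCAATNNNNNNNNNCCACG, which Atf6 and spliced Xbp1 read together with the factor NF-Y. RefSeq promoter windows of build GRCm38.p6, each reaching from 250 bases before to 50 bases after a start site, were available for 36 of the 40 genes and were matched by symbol. A search of both strands found the element in 9 of these 36 genes (25.0%) and in 37 of all 27025 genes with a window (0.137%). The sites are shown because their carriers include the classic chaperone targets, whose values on the arrays follow below. Capitals mark the fixed letters, each site reads 5′ to 3′, and the strand is that of the genome. Hsp90b1 holds 2 sites.

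Hspa5, chr2:34772025-34772043, plus strand: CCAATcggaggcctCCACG
Hsp90b1, chr10:86705533-86705551, plus strand: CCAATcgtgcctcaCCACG
Hsp90b1, chr10:86705638-86705656, minus strand: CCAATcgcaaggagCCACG
Calr, chr8:84847075-84847093, plus strand: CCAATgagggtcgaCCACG
Canx, chr11:50325800-50325818, minus strand: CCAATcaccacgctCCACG
Pdia6, chr12:17266491-17266509, plus strand: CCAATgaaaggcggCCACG
Dnajc3, chr14:118937827-118937845, plus strand: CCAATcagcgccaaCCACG
Creld2, chr15:88819520-88819538, minus strand: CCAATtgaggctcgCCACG
Syvn1, chr19:6046532-6046550, plus strand: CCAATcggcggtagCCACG
Derl3, chr10:75893242-75893260, minus strand: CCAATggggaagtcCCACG

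The related element ERSE-II, in which ATTGG and CCACG stand 1 base apart, was found in Herpud1 and Dnajb11 (2 of 36 genes, against 0.0444% of all genes with a window). The core of the amino acid response element that Atf4 reads, TGATGNAA, was found in Trib3, Chac1, Asns and Herpud1 (11.1% of the 36, against 4.51% of all). The Xbp1 core TGACGTGG was in 0 of the 36 genes and in 0.714% of all genes. A match in these windows is a description of the letters and not of a bound site.

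Before the members, the arrays themselves need 1 remark. The probe set of Gpr116, now Adgrf5, read 11.89, 11.78 and 11.87 on knockout 1, 2 and 3 and 11.49, 11.53 and 11.51 on control 1, 2 and 3, so the labelled deletion was not visible as a loss of signal (0.34 ± 0.05, adjusted p = 0.0119). The position of these probes in the gene was not available for comparison with the floxed exons, and all directions below rest on the labels. Type II markers were high on all arrays, with a mean over 12 genes of 12.27 to 12.32 on the knockout arrays and 12.19 to 12.21 on the control arrays, and 2 of the 12 (Lamp3 and Lpcat1) were called higher. Markers of ciliated cells were lower on the knockout arrays (13 of 14 called; mean 8.05 to 8.56 against 9.17 to 9.24) and markers of dividing cells higher (5 of 9 called; 8.37 to 9.02 against 7.88 to 8.07). Of the club and goblet cell markers 2 of 10 were called lower (8.63 to 9.79 against 9.13 to 9.30). Of the type I markers 1 of 7 (Ager) and of the neutrophil markers 1 of 6 (Retnlg) were called higher. Of 6 endothelial markers 1 was called higher and 1 lower. Plasma cell markers, of interest here because those cells carry a strong Xbp1 program, were called in 0 of 7 genes (6.67 to 6.78 against 6.65 to 6.75), and T cell markers stood at 6.69 on knockout 1 and between 5.57 and 5.77 elsewhere. The first number in the array titles (9, 9 and 11 for knockout, 8, 8 and 10 for control) is unexplained in the labels, and if it marks a batch, that batch and the group cannot be told apart.

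Values are log2 expression levels, and differences are knockout minus control on that scale with the standard error of the limma fit over all genes. A gene is called when its p, adjusted over all 19938 genes, is under 0.05. Of the 40 genes, 2 were called higher (Derl2 and Edem1), 1 was called lower (Edem2) and 37 were not called. These 3 genes, 7.5% of the members, compare with 8.49% of all genes called, 3.36% higher and 5.13% lower, so the share called was close to the background. An unadjusted p under 0.05 was found for 11 of the 40 (27.5%) and for 22.1% of all genes. The 3 called genes are among the 11 degradation genes, and whether the roles differ was not tested. The differences of the members ran from -0.30 to 0.49, and 20 of the 40 were under 0.1 in size. RNA was measured in bulk, so more cells of a type and more RNA per cell cannot be told apart.

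The sign of the differences was uneven. It was positive for 28 of the 40 genes (70.0%) and for 51.9% of all genes, and the median difference was 0.062 for the members and 0.003 for all genes. With each array centred on its median the numbers were 34 of 40 for the members and 62.2% for all genes. The knockout and control values did not overlap for 13 members with knockout higher and 2 with knockout lower, which is 37.5% of the members against 27.6% of all genes (14.8% higher and 12.8% lower). Genes of a pathway are not independent of each other, so these shares describe the list and carry no test.

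**Figure D1:**
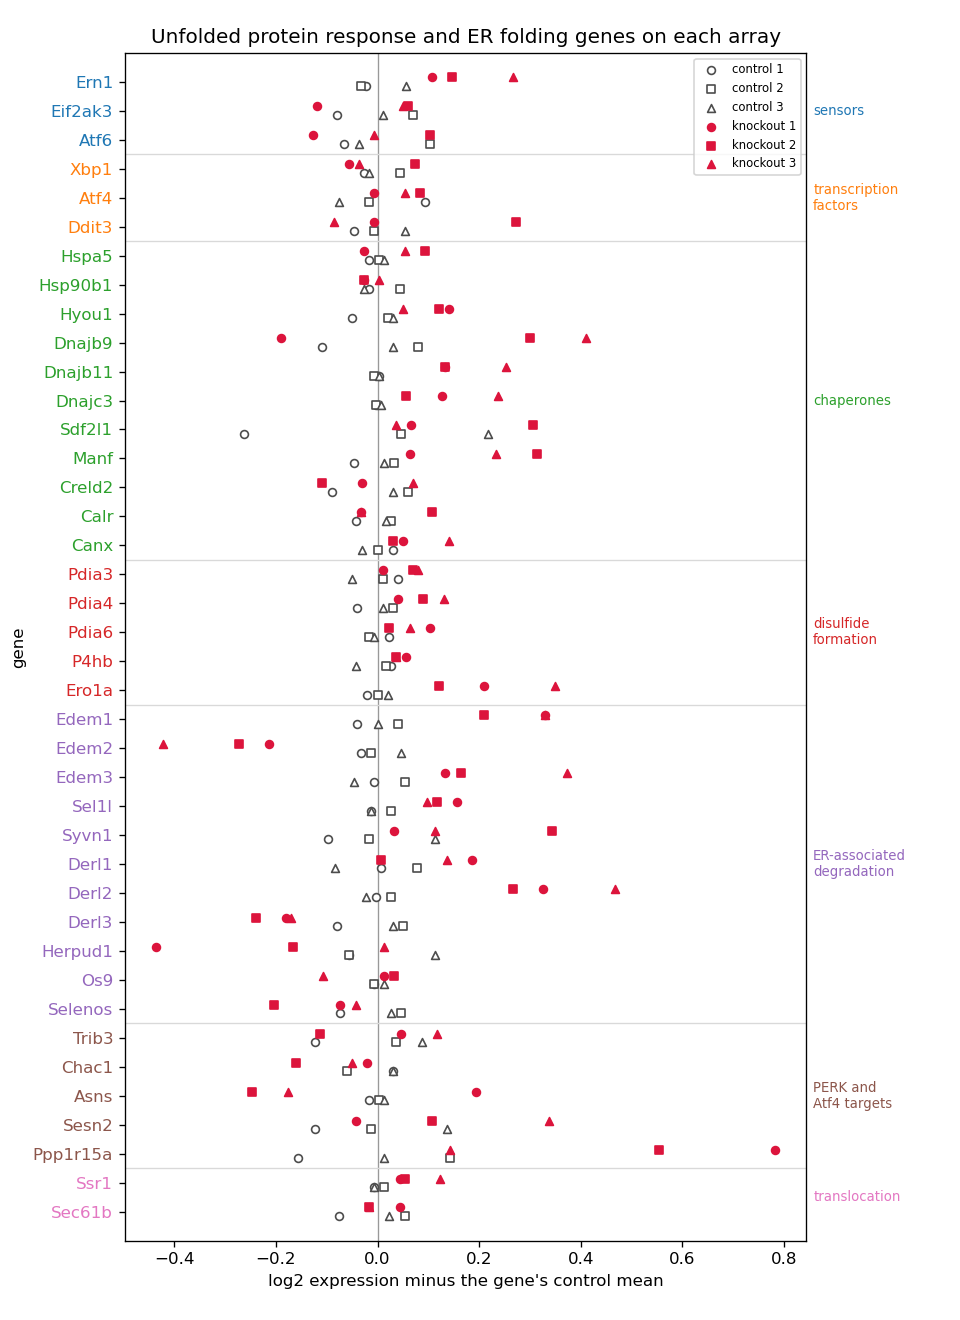
Each row is a gene, grouped by role, and each point is 1 array: log2 expression minus the gene's mean over the 3 control arrays (open symbols, control; filled symbols, labelled knockout; circle, square and triangle for replicate 1, 2 and 3). The knockout points of Derl2 and Edem1 lie to the right of all their control points and those of Edem2 to the left. Differences were positive for 9 of the 11 chaperones (81.8%, against 51.9% of all genes), with a median of 0.103 and 0 calls.

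Among the sensors, 0 of 3 genes were called, with 1 unadjusted p under 0.05. Ern1, the kinase and endonuclease that splices Xbp1, read 9.20, 9.24 and 9.36 on the knockout arrays and 9.07, 9.06 and 9.15 on the control arrays. Its groups did not overlap, but the margin between knockout 1 and control 3 was small, and the difference of 0.17 ± 0.06 (SE, n = 3 per group) had an adjusted p of 0.155. Eif2ak3, the PERK kinase, had equal group means of 8.41 (SD 0.10 and 0.075), with a 95% interval of the difference from -0.17 to 0.16. Atf6 had means of 9.79 and 9.80, with an interval from -0.19 to 0.17. These proteins are switched on by changes of the protein itself, which these arrays do not measure.

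The transcription factors of the response were also called in 0 of 3 cases, and 0 had an unadjusted p under 0.05. Total Xbp1 read 11.35, 11.48 and 11.37 on the knockout arrays and 11.38, 11.45 and 11.39 on the control arrays. The groups lay on top of each other, with a difference of -0.01 ± 0.06 and an interval from -0.14 to 0.13. Whether the probes tell spliced from unspliced Xbp1 is not known here. Atf4 differed by 0.04 ± 0.06 (interval -0.10 to 0.19). Ddit3, which encodes the pro-apoptotic factor CHOP, read 7.36, 7.64 and 7.28 against 7.32, 7.36 and 7.42. Knockout 2 stood alone above the other 5 arrays for Ddit3, and the interval of the difference ran from -0.17 to 0.29.

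The chaperones formed the largest group together with the degradation genes, and 0 of 11 were called, with 2 at an unadjusted p under 0.05. Hspa5 encodes BiP, the Hsp70 of the ER lumen and the standard marker of the response. It read 11.79, 11.91 and 11.87 on the knockout arrays and 11.80, 11.82 and 11.83 on the control arrays. Knockout 1 was the lowest of all 6 arrays and the other 2 knockout arrays were the highest, which left a difference of 0.04 ± 0.05 with an interval from -0.08 to 0.16 (adjusted p = 0.741). The lectin chaperones calreticulin and calnexin, which hold glycoproteins during folding, differed by 0.01 ± 0.06 (Calr) and 0.07 ± 0.05 (Canx). The ER Hsp90 Hsp90b1 differed by -0.02 ± 0.05, and Hyou1, a nucleotide exchange factor of BiP, by 0.10 ± 0.05 with groups apart (9.57 to 9.66 against 9.47 to 9.55).

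The J-domain co-chaperones, which pass clients to BiP, were not called. Dnajb11 read 9.67, 9.67 and 9.79 on the knockout arrays against 9.54, 9.53 and 9.54. The control arrays differed by no more than 0.01 here, all knockout arrays lay above them, and the difference was 0.17 ± 0.05 (adjusted p = 0.111). Dnajc3, also an inhibitor of PERK, read 10.43, 10.36 and 10.54 against 10.30, 10.30 and 10.31, a difference of 0.14 ± 0.06 (adjusted p = 0.232), and its other probe set gave 0.14 as well. Dnajb9, a target of spliced Xbp1 that restrains IRE1, read 10.30, 10.79 and 10.90 against 10.38, 10.57 and 10.52. Knockout 1 was the lowest of the 6 arrays and the other knockout arrays the highest, so the difference of 0.17 ± 0.15 had an adjusted p of 0.587, and without knockout 1 it was 0.35 with an adjusted p of 0.0365.

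The secreted stress protein Manf, which binds BiP, read 9.50, 9.75 and 9.67 on the knockout arrays and 9.39, 9.47 and 9.45 on the control arrays. All knockout values were the higher, by the smallest margin on knockout 1. The difference was 0.20 ± 0.07 with an adjusted p of 0.162, and without knockout 1 it was 0.27 with an adjusted p of 0.0377. Creld2, another secreted ER stress protein, differed by -0.02 ± 0.07, and Sdf2l1, a co-factor of the J-domain proteins, by 0.14 ± 0.13. Sdf2l1 varied most among control arrays, from 8.33 to 8.81.

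Disulfide bonds are set by protein disulfide isomerases and by the oxidase that recharges them, and 0 of these 5 genes were called, with 1 at an unadjusted p under 0.05. The isomerases Pdia3, Pdia4, Pdia6 and P4hb had differences between 0.04 and 0.09, each with an SE of 0.05. Their upper 95% bounds lay between 0.16 and 0.21. The oxidase Ero1a read 9.43, 9.34 and 9.57 on the knockout arrays and 9.20, 9.22 and 9.24 on the control arrays. Its groups did not overlap and its difference was the largest of this role, 0.23 ± 0.07, with an adjusted p of 0.1 that became 0.0389 with array weights and 0.0445 without knockout 2.

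Among the degradation genes, 2 of 11 were called higher and 1 lower (27.3%, against 8.49% of all genes), and 6 had an unadjusted p under 0.05 (54.5%, against 22.1%). The differences were positive for 6 and negative for 5. EDEM proteins trim or recognise mannose on misfolded glycoproteins and hand them to the export machinery. Edem1 read 10.33, 10.21 and 10.33 on the knockout arrays and 9.96, 10.04 and 10 on the control arrays. All knockout arrays exceeded all control arrays, and Edem1 was 1.22-fold higher (0.29 ± 0.06 on log2, adjusted p = 0.0256). Edem2, which makes the first mannose cut, read 8.71, 8.65 and 8.50 against 8.89, 8.91 and 8.97. Its groups were apart in the other direction, and Edem2 was 1.23-fold lower (-0.30 ± 0.07, adjusted p = 0.0392). Edem3 read 9.36, 9.39 and 9.60 against 9.22, 9.28 and 9.18, also without overlap, but its difference of 0.22 ± 0.08 had an adjusted p of 0.138. The 3 EDEM genes therefore did not share a direction. Knockout 1 was highest and knockout 3 lowest of the knockout arrays for Edem2, as they were for the mean of the ciliated markers (8.56, 8.20 and 8.05), and the part of those cells in the Edem2 value was not tested.

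Derlins are membrane proteins of the channel that draws misfolded proteins out of the ER. Derl2 read 9.46, 9.40 and 9.60 on the knockout arrays and 9.13, 9.16 and 9.11 on the control arrays. All knockout arrays lay above all control arrays, with an SD of 0.10 on the knockout and 0.025 on the control arrays. Derl2 was 1.28-fold higher (0.35 ± 0.06, adjusted p = 0.0200). Derl1 read 10.13, 9.95 and 10.08 against 9.95, 10.02 and 9.86, with overlapping groups (0.11 ± 0.07, adjusted p = 0.432). Derl3 read 7.43, 7.37 and 7.44 against 7.53, 7.66 and 7.64, lower on every knockout array, with a difference of -0.20 ± 0.06 that did not pass (adjusted p = 0.0888). Differences between the derlins were not tested.

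**Figure D2:**
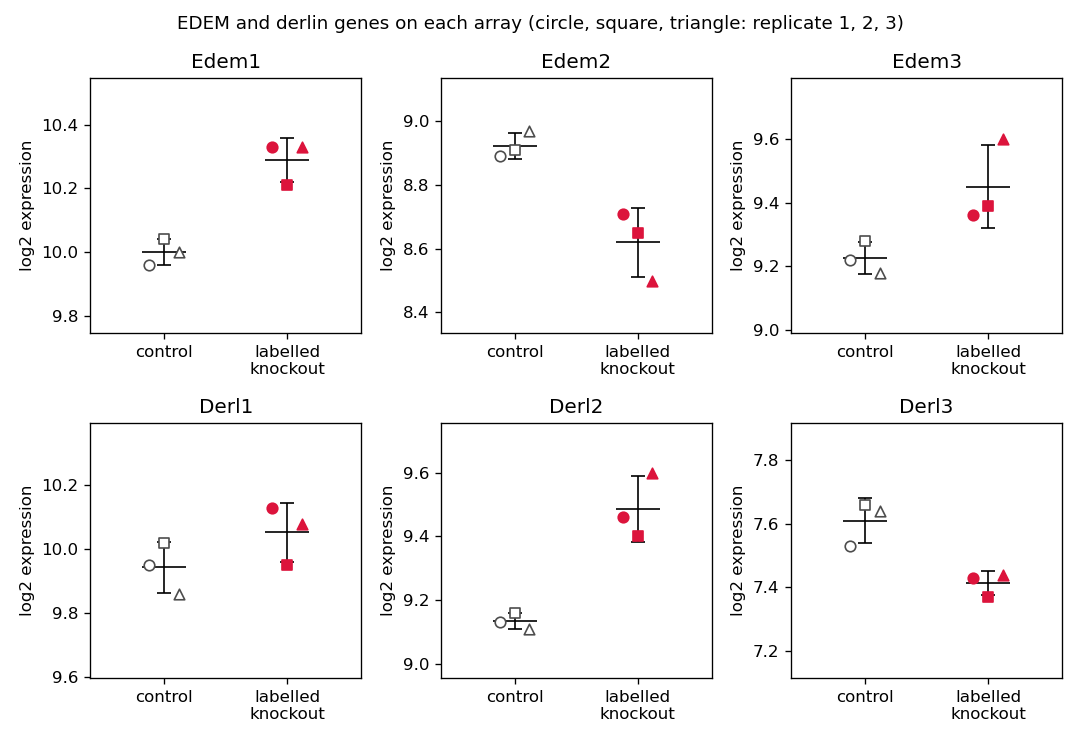
Log2 expression of the 3 EDEM and the 3 derlin genes on each array, each panel spanning 0.8 log2 units. Points are arrays, the long tick is the group mean and the whiskers are the SD (n = 3). Edem1 and Derl2 were called higher and Edem2 lower, Edem3 and Derl3 had groups apart without a call, and the groups of Derl1 overlapped.

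The remaining degradation genes were not called. Sel1l, the adaptor of the ubiquitin ligase complex, read 10.80, 10.76 and 10.74 on the knockout arrays and 10.63, 10.67 and 10.63 on the control arrays, close together within each group and apart between them (0.12 ± 0.05, adjusted p = 0.188). Its partner ligase Syvn1 differed by 0.16 ± 0.10 with overlap. Herpud1, which organises this complex, read 10.63, 10.90 and 11.08 against 11.01, 11.01 and 11.18. Only knockout 3 reached the control range, and the difference of -0.20 ± 0.12 had an interval from -0.47 to 0.08. The lectin Os9 (-0.02 ± 0.06) and Selenos, a selenoprotein of the export complex (-0.11 ± 0.06), were not called either.

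The stretches before the start sites of the called genes are shown beside that of Hspa5, to set genes that were called against the standard target that was not. Each is the last 150 bases before the start on the gene's own strand in GRCm38.p6. Capitals mark the ERSE in Hspa5, which has another CCAAT left in lower case, and, in the others, the separate CCAAT boxes of either strand. CCACG is not in the printed stretches of Edem1, Derl2 and Edem2 on either strand, but it occurs elsewhere in their full windows, 2 times in Edem1 and 1 time each in Derl2 and Edem2. Derl2 has 2 windows, and the one shown is the downstream one. The other holds neither CCAAT nor CCACG. None of the 4 motifs searched was found in the full windows of Edem1, Derl2 or Edem2.

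Hspa5, chr2:34771940-34772089, plus strand: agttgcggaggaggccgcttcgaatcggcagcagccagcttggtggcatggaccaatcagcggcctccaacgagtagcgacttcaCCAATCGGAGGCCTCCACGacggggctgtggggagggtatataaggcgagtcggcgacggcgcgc
Edem1, chr6:108828491-108828640, plus strand: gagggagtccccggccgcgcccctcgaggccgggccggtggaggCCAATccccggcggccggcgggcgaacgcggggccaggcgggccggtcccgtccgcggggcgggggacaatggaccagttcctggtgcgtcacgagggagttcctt
Derl2, chr11:71019304-71019453, minus strand: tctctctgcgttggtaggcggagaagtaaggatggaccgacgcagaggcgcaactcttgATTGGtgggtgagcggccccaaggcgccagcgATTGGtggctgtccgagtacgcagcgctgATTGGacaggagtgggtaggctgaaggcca
Edem2, chr2:155729476-155729625, minus strand: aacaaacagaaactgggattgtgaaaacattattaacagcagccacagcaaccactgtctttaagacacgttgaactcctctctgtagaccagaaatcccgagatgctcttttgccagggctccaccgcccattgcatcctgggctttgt

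Of the 9 genes with an ERSE, 0 were called, and their differences ran from -0.20 (Derl3) to 0.16 (Syvn1) with a median of 0.04. The limma fit gave an unadjusted p under 0.05 for 1 of them, Derl3. The 4 genes with the amino acid response element core were called in 0 cases as well, with differences from -0.20 to 0.02. Of all genes 8.49% were called, so 0 calls among 9 or 4 genes were close to that share. All 3 called genes had a window without either element, as did most of the 36 genes with a window. With so few calls among the 40 genes, no relation between motif and change was tested.

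Targets downstream of PERK and Atf4 were called in 0 of 5 cases, with 1 unadjusted p under 0.05. Ppp1r15a, known as GADD34, reverses the translation block set by PERK and also responds to other acute stimuli. It read 8.56, 8.33 and 7.92 on the knockout arrays and 7.62, 7.92 and 7.79 on the control arrays. Knockout 1 and 2 lay above every control array and knockout 3 equalled the highest of them, so the largest difference among the 40 genes, 0.49 ± 0.16, had an adjusted p of 0.128. Without knockout 3 it was 0.67 with an adjusted p of 0.0346. T cell markers and markers of dividing cells were highest on knockout 1, where Ppp1r15a was highest too, and their part in this value was not tested.

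Trib3, a pseudokinase that feeds back on the response, read 6.94, 6.78 and 7.01 against 6.77, 6.93 and 6.98, with a difference of 0.02 ± 0.08. Chac1, which degrades glutathione, differed by -0.08 ± 0.06, and Sesn2, a stress-induced regulator of growth signalling, by 0.13 ± 0.11. Asns, the asparagine synthetase, read 9.66, 9.22 and 9.29 against 9.45, 9.47 and 9.48. Control arrays agreed within 0.03, while knockout 1 lay above and the other knockout arrays below them, so its mean difference of -0.08 ± 0.11 joins values on both sides.

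The translocation genes Ssr1, a subunit of the translocon-associated complex, and Sec61b, a subunit of the channel through which proteins enter the ER, differed by 0.07 ± 0.05 and 0.00 ± 0.06. Ssr1 values were apart (10.96 to 11.04 against 10.91 to 10.93) and those of Sec61b overlapped. Neither was called, and neither had an unadjusted p under 0.05.

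**Figure D3:**
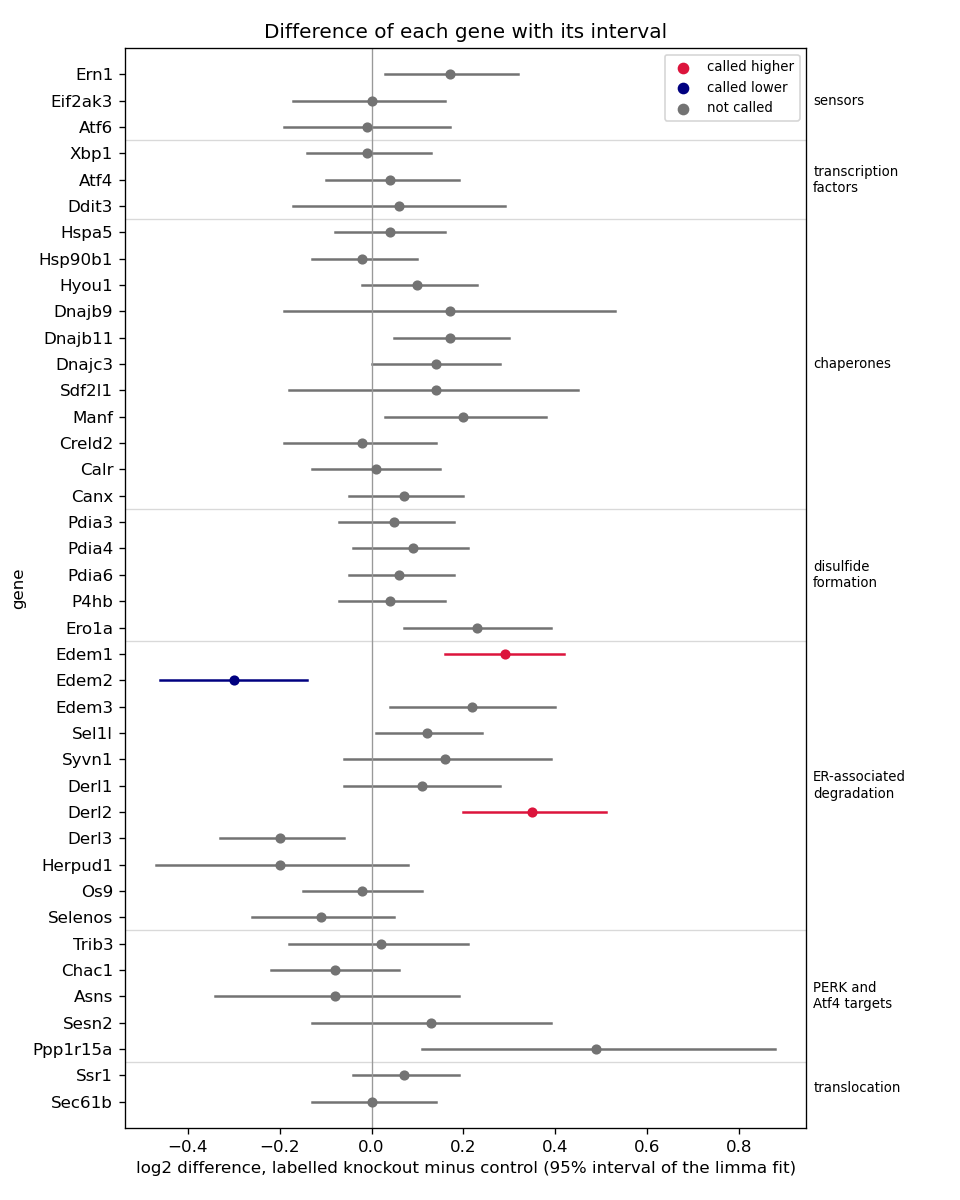
Log2 difference (labelled knockout minus control) of each of the 40 genes with its 95% interval from the limma fit, n = 3 arrays per group, grouped by role. Red marks a gene called higher, blue a gene called lower and grey a gene not called. For 20 of the 40 genes the interval stays within 0.25 of 0, and Ppp1r15a and Dnajb9 have the widest intervals.

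How firmly the calls stand varied with the arrays used. Derl2 remained called without any 1 knockout array (adjusted p = 0.0276, 0.0182 and 0.0441) and when arrays of the same number were blocked (0.0421), where Edem1 (0.0618) and Edem2 (0.0779) did not pass. Edem1 was also not called without knockout 3 (0.0834), and Edem2 not without knockout 2 (0.0544) or knockout 3 (0.0844). Without control 1, control 2 or control 3 none of the 40 genes passed the limma threshold, with 6, 8 and 8 of them at an unadjusted p under 0.05 (15.0%, 20.0% and 20.0%, against 17.7%, 16.6% and 16.8% of all genes). The adjusted p of Derl2 was then 0.0840, 0.0801 and 0.0943. Calls became rarer over all genes in the same fits. The share of all genes called was 2.98%, 2.58% and 2.30% without control 1, 2 and 3, 9.67%, 9.48% and 4.57% without knockout 1, 2 and 3, and 7.94% with the block. The log2 difference of Derl2 stayed between 0.30 and 0.40, that of Edem1 between 0.27 and 0.33 and that of Edem2 between -0.35 and -0.24 in the 6 fits that left out 1 array.

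**Figure D4:**
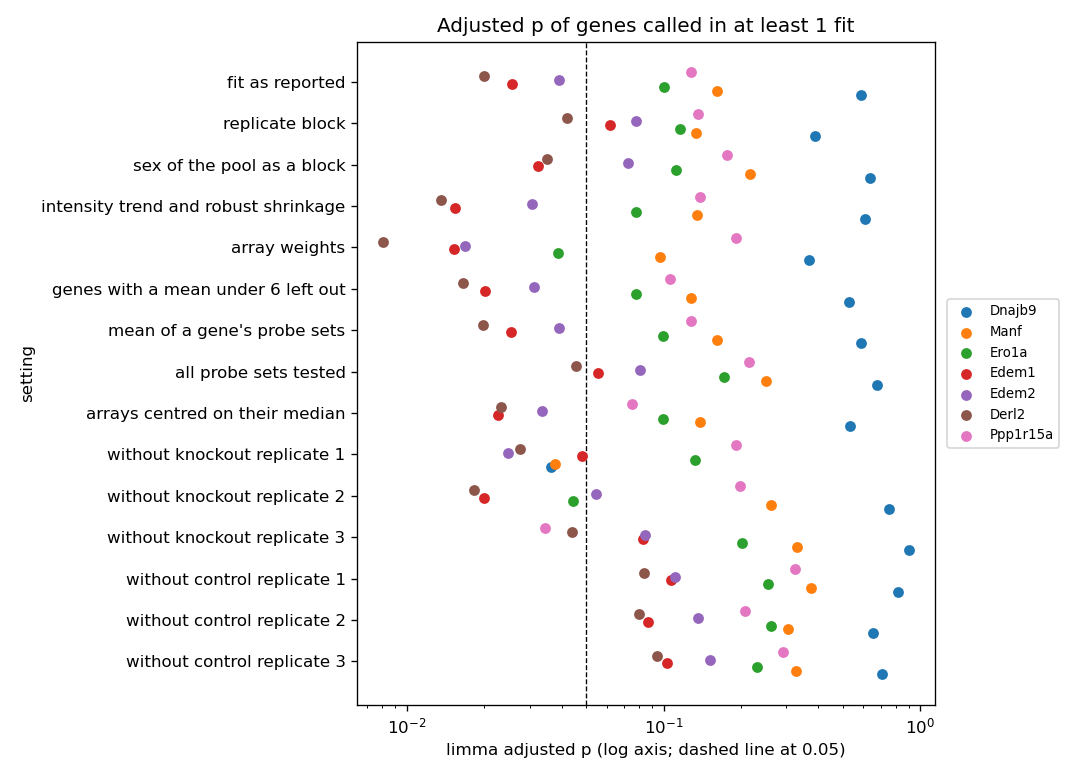
Adjusted p (log axis) of the 7 genes that were called in at least 1 fit, under the reported fit and 14 alternatives, with a dashed line at 0.05. Derl2 lies left of the line except in the fits without a control array, whereas Ero1a, Manf, Dnajb9 and Ppp1r15a cross it in 1 or 2 settings each.

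To see whether the wider pathway moved, 153 other genes were listed by function and 146 of them were measured. Of these, 6 were called higher, 1 lower and 139 were not called, so 4.79% were called, against 8.49% of all genes (4.11% against 3.36% higher and 0.685% against 5.13% lower). An unadjusted p under 0.05 was found for 32 (21.9%, against 22.1% of all genes). As among the members, positive differences were frequent (101 of 146, 69.2%). The median over all 146 differences, of either sign, was 0.042. Called genes were 2 of 29 other folding genes, 2 of 22 other degradation genes and 3 of 27 other Atf4 targets. Genes of translocation (31 measured), ER export (19) and other sensors and regulators (18) had 0 calls, with 9, 5 and 4 at an unadjusted p under 0.05.

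Among other folding genes, Prdx4, the peroxiredoxin of the ER that works alongside the ERO1 oxidases, read 8.62, 8.37 and 8.51 on the knockout arrays and 8.06, 8.16 and 8.08 on the control arrays (0.40 ± 0.07, adjusted p = 0.0217). Erp29, a chaperone related to the disulfide isomerases, read 7.83, 7.63 and 7.75 against 7.31, 7.40 and 7.44 (0.35 ± 0.07, adjusted p = 0.0254, and 0.0517 with the replicate block). In both genes all knockout arrays were above all control arrays. Among other degradation genes, Erlin1, which with its partner directs degradation of ER membrane proteins, rose by 0.61 ± 0.14 (adjusted p = 0.0406), and Ube2g2, a ubiquitin-conjugating enzyme of the pathway, by 0.33 ± 0.08 (adjusted p = 0.0425, and 0.0567 with the replicate block). Of 14 alternative fits, Prdx4 was not called in 4, Erp29 in 6, Erlin1 in 5 and Ube2g2 in 8.

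Among other Atf4 targets, Cth, which makes cysteine from cystathionine, rose by 0.68 ± 0.13 (adjusted p = 0.0229) and the amino acid transporter subunit Slc7a5 by 0.53 ± 0.11 (adjusted p = 0.0337). Cth was not called in 4 and Slc7a5 in 5 of the 14 alternatives. The tryptophanyl-tRNA synthetase Wars fell by 0.22 (SE 0.05, adjusted p = 0.0484), and was not called in 10 of 14 alternatives, among them the replicate block (0.0992), centring (0.0889) and each of the 6 fits that left out 1 array. Over the 27 other Atf4 targets the median difference was 0.00. The protease Mbtps1, which cuts Atf6 and also the sterol regulators of lipid synthesis, differed by -0.02 ± 0.06, and the Atf6 relative Atf6b by -0.02 ± 0.05. Without control 1 only Slc7a5 of these 7 genes passed, and without control 2 or control 3 none did. In these fits 24, 22 and 23 of the 146 genes had an unadjusted limma p under 0.05, against 17.7%, 16.6% and 16.8% of all genes.

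**Figure D5:**
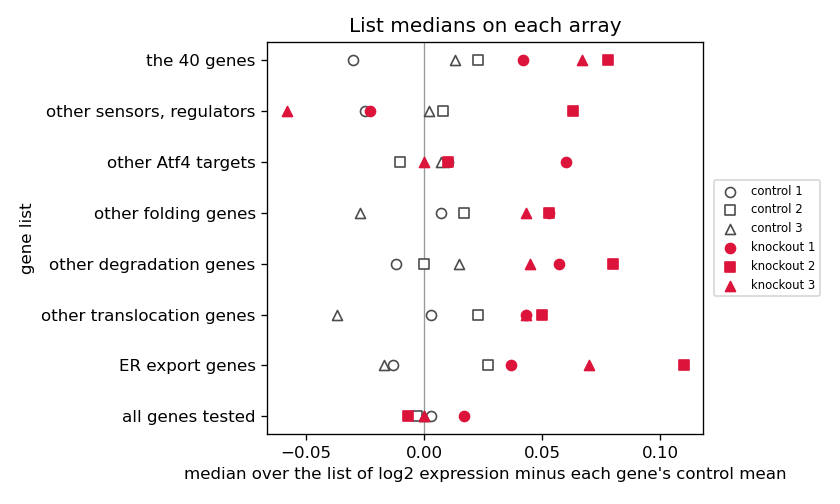
Median over each gene list of log2 expression minus each gene's control mean, for each array (open, control; filled, labelled knockout). For the 40 genes the knockout arrays read 0.042, 0.078 and 0.067 and the control arrays -0.030, 0.023 and 0.013, and the medians of all genes lie between -0.007 and 0.017.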

How the data were processed

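Each of the 6 arrays measured total RNA of pooled type II cells, with 3 arrays per group. The deposited values are log2 expression, which the authors computed by RMA. The submitters' processing notes name Affymetrix Expression Console 1.1. RMA equalises array distributions. Differences of very bright genes may be compressed near the top of the scale, and the array maxima were 13.32 to 13.43. Array medians were 6.77 to 6.81. No genome build was needed for these values. Precision is limited by the 6 arrays.

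Of 35556 probe sets, 21789 had 1 symbol in the platform annotation. The probe set with the highest mean stood for a gene. Groups were compared across all 19938 genes with limma 3.58.1 in R 4.3.3 (lmFit, eBayes, two-sided, Benjamini-Hochberg). The code was first run on simulated data with equal spread in both groups. The measured median SD was 0.0907 for knockout and 0.0624 for control, so the simulation does not cover unequal spread. P-values measure the spread between pools of mice. Every member is named, with other pathway genes where called, and Mbtps1 and Atf6b. Mbtps2 was listed but not analysed here. The members, lists and tests were chosen with earlier results of these data known.

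The labels give both groups replicate numbers 1 to 3. What a number stands for is not stated. Same-numbered arrays deviated together over genes (r = 0.192, 0.103 and 0.111, each above the limit of 0.1), and arrays of unlike number gave r from -0.135 to 0.0428. Deviations from the mean of 3 arrays are tied to each other, so these values are no test of pairing. Numbers were treated as pairs, from the values alone, in an alternative fit with a block. Xist and Y-linked genes marked 1 pool of each group as male. Other alternatives were sex as a block, a variance trend, array weights, a filter at a mean of 6, averaged probe sets, all probe sets, centring, and leaving out each array.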

Additional observations from a re-analysis of the deposited data

How the results depend on the processing

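Of the 40 genes, 2 were called higher and 1 lower. In the fit with the replicate block 1 was higher and 0 lower, as when all probe sets were tested together. With sex as a block 0 were lower. With the replicate block, all probe sets and the sex block, 11, 11 and 10 members had an unadjusted limma p under 0.05. These were 27.5%, 27.5% and 25.0% of the members, against 21.9%, 20.2% and 20.7% of all genes or probe sets tested. Leaving out 1 array gave 0 to 4 higher and 0 to 1 lower. Of the other pathway genes, 6 were higher and 1 lower. They were 3 and 0 with sex as a block, 10 and 2 with array weights and 1 and 0 over all probe sets. In these fits 27, 34 and 27 of the 146 genes had an unadjusted limma p under 0.05, against 32 in the reported fit. Of all genes or probe sets tested, 20.7%, 24.7% and 20.2% had such a p, against 22.1% in the reported fit. With centring 0 of the other pathway genes were lower, and with the filter 2 were lower, Wars and Creb3l4. With the replicate block the 2 lower genes were Atf3 and Tusc3, and Wars was not called. Without control 2, Atf3 was the only one of these genes called, and it was lower. Leaving out 1 array gave 0 to 8 higher and 0 to 1 lower. The members' median of 0.062 became 0.092 with centring, which adds 0.03 to the median gene, and 0.043 to 0.074 without 1 array. The causes were not tested.

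No called difference of a named gene changed sign in the 14 alternatives, and some differences near 0 that were not called did. With centring they were 0.03 (Eif2ak3), 0.02 (Atf6, Xbp1) and 0.01 (Hsp90b1, Creld2, Os9, Mbtps1, Atf6b), and with array weights -0.01 (Calr, Sec61b). Without 1 array they ran from -0.04 to 0.06 (Eif2ak3), -0.07 to 0.05 (Atf6), -0.05 to 0.02 (Xbp1, Os9), -0.05 to 0.13 (Ddit3), -0.03 to 0.01 (Hsp90b1), -0.07 to 0.02 (Creld2), -0.03 to 0.04 (Calr), -0.04 to 0.08 (Trib3), -0.21 to 0.01 (Asns), -0.04 to 0.03 (Sec61b), -0.06 to 0.01 (Mbtps1) and -0.05 to 0.00 (Atf6b).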

Other observations

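The members varied more between the pools labelled knockout than between control pools. The SD was the larger in the knockout group for 33 of the 40 genes (82.5%), against 68.2% of all genes, and the median SD was 0.0842 and 0.0447 for the members and 0.0907 and 0.0624 for all genes. The spread was widest for Dnajb9 and Ppp1r15a (SD 0.32 on the knockout arrays for each, and 0.098 and 0.15 on the control arrays), Asns (0.24 against 0.015) and Herpud1 (0.23 against 0.098). Knockout 1 was the lowest knockout array for 18 of the 40 genes, including Dnajb9 and Herpud1, and the highest for 11, including Asns and Ppp1r15a. Knockout 2 was the lowest for 15 and the highest for 11, and knockout 3 the lowest for 7 and the highest for 18. No cause of this spread was tested.

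Pdia4, Dnajc3 and Sec61b had further probe sets. The second probe set of Pdia4 was dim, with means of 5.67 and 5.50, and differed by 0.17 ± 0.08 where the one used differed by 0.09. Those of Sec61b differed by 0.05 and 0.02 where the one used differed by 0.00.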
